A study of Mus musculus with 32 samples.

Results

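The Six2-lineage cells of the embryonic kidney at E18.5, counted in days from conception, were compared between embryos with the ENL-T1 mutation and control embryos. The comparison holds 6 of the 32 libraries of the series, 3 libraries labelled T1 and 3 labelled WT, chosen by their labels and fitted without the E14.5 libraries. The T1 embryos were Six2-TGCtg/+;EnlT1/+ and the WT embryos Six2-TGCtg/+;Enl+/+, so both genotypes carried the Six2-TGC transgene, which makes a GFP-Cre fusion protein under the Six2 promoter. In T1 embryos Cre switched 1 of the 2 Enl alleles (gene Mllt1) to the T1 form, which inserts a few residues into the YEATS domain of ENL. A Cre-activated tdTomato reporter marked every cell that had expressed the transgene and all its descendants, and tdTomato-positive cells were sorted from dissociated kidneys. The sorted population therefore mixes nephron progenitors with the podocytes and tubule cells that came from them. This transgene strain is known to express Six3 in nephron progenitors, a limit that both genotypes share. Whether a library came from a single embryo or from pooled embryos is not stated in the sources used here, so p-values measure the spread between these libraries.

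ENL is a chromatin reader whose YEATS domain binds acylated lysines on histone H3 and brings the super elongation complex and its partners to genes. Nephron progenitors of the cap mesenchyme express Six2 and Cited1 and either renew or respond to Wnt signals by forming renal vesicles. Renal vesicles, which switch on Wnt4, Lhx1 and Jag1, later become podocytes, proximal tubule, loop of Henle and distal tubule. Hox genes lie in 4 clusters and give cells their position along the body axis, and the paralogs of group 11 are needed for the metanephric kidney to form.

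Depth ranged from 76510702 to 92026288 counts per library. Levels are given as CPM, the counts relative to the TMM-scaled total of each library, and folds as log2 of T1 over WT with a standard error (SE). The SE was computed as the absolute log2 fold change over the square root of F, the statistic of edgeR's quasi-likelihood test. The p-values were adjusted by the Benjamini-Hochberg method over 22685 tested genes. Calls needed both an adjusted p under 0.05 and a change over 1.5-fold, the thresholds of the study. The first principal component, with 54.4% of the variance, separated the genotypes. Xist was above 10 CPM in replicates 2 and 3 of each genotype and below it in replicate 1 of each, so that state was balanced between the genotypes.

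Mllt1, the targeted gene, was at 82, 81.2 and 89.2 CPM in WT and 78.9, 86 and 84.1 CPM in T1, with a log2 fold change of -0.02 ± 0.065 (adjusted p = 0.881). The groups overlapped. The counts per gene do not separate the T1 allele from the wild-type allele, so this level does not check the labels. Six3 was present in every library, at 46.3, 44.2 and 55.1 CPM in WT and 35.8, 39.9 and 35.3 CPM in T1, with a log2 fold change of -0.39 ± 0.092 that did not pass the fold threshold (adjusted p = 0.00839). Progenitor genes such as Six2 and Sall1 and podocyte and tubule genes such as Nphs1 and Lrp2 were present in every WT library.

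In T1, 1392 genes rose (6.14% of those tested) and 1256 fell (5.54%). Of these calls, 2617 had T1 libraries that all lay on 1 side of the WT libraries and 31 had overlapping groups, while over all tested genes the T1 libraries lay above every WT library in 17.7% and below in 17.1%. The genes with the largest rise in level were the haemoglobins Hba-a1 and Hbb-bs, followed by Hoxb9 and the matrix proteins Fn1 and Ltbp1. The largest falls in level among nuclear genes belonged to Podxl, the main sialomucin of the podocyte surface, and Lrp2, the endocytic receptor megalin of the proximal tubule. Of the called genes, 391 rose and 270 fell over 4-fold. In bulk libraries like these, fewer cells of a type and less RNA per cell cannot be told apart.

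**Figure D1:**
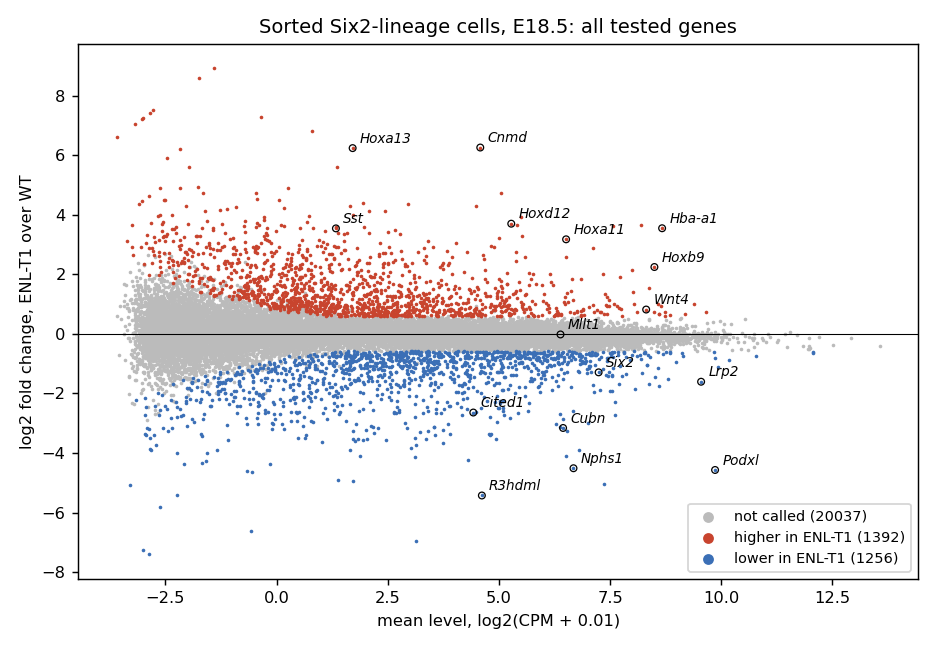
Log2 fold change of ENL-T1 over WT against mean level for the 22685 tested genes of the sorted Six2-lineage cells at E18.5, each point a gene, with 16 genes labelled. Hox genes lie high in the plot, with Hoxa13 above 6, and the podocyte genes Nphs1 and Podxl lie below -4.

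Markers of macrophages and red cells moved with genotype. Of 12 macrophage markers, 10 rose (83.3%, beside 6.14% of all tested genes) and none fell. Their summed level was 41.5, 39.8 and 38.4 CPM in the WT libraries against 122, 123 and 105 CPM in T1. None of the 12 was at 0 in a group. Adgre1, which encodes F4/80, was at 0.535, 0.707 and 0.979 CPM in WT and 7.2, 8.89 and 6.9 CPM in T1, while Csf1r, the receptor for the macrophage growth factor, was at 16.4, 15.4 and 11.7 and 19.5, 20 and 16.2 CPM (adjusted p = 0.0754). Of 7 tested red cell genes 5 rose (71.4%). Hba-a1, an alpha globin, was at 85.5, 59.1 and 48.2 CPM in WT and 661, 934 and 656 CPM in T1 (log2 fold change 3.54 ± 0.20, adjusted p = 3.94e-08), and the summed level of the list was 203, 130.4 and 102 CPM in WT and 1492, 2201 and 1530.0 CPM in T1. Hba-a1 and Hba-a2 are near-identical, as are Hbb-bs and Hbb-bt, so their counts can be shared between copies. For both lists every T1 library lay above every WT library. Their part in the other results was not tested.

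Markers of cells that the Six2 lineage does not form were otherwise mixed. Of 11 endothelial markers 1 was called, a fall (9.09%, beside 5.54% of all tested genes that fell). It was Pecam1 (log2 fold change -0.94 ± 0.16, adjusted p = 0.000951, and 0.0725 in a fit of all 12 sorted Six2 libraries). The summed endothelial level was 77, 69.1 and 82.4 CPM in WT and 59.9, 73.1 and 55.1 CPM in T1, so the groups overlapped. The endothelial falls numbered 2 without WT replicate 1, 3 without T1 replicate 2, where Cdh5, an endothelial cadherin, was also called lower (-0.83, adjusted p = 0.0113), and 0 in the fit of all 12 libraries. Of 10 tested ureteric markers 2 rose (20%) and 4 fell (40%), beside 6.14% and 5.54% of all tested genes. Both rises were of genes that also belong to the Wnt or Hox list. The falls numbered 2 without WT replicate 2 and 1 in the fit of all 12 libraries. Among the falls was Aqp2, a collecting duct water channel (log2 fold change -1.70 ± 0.29, adjusted p = 0.000976). Ret, the receptor of the ureteric tip, stood at 3.17, 3.67 and 3.49 CPM in WT and 4.14, 3.24 and 5.04 CPM in T1. Of the 4 MHC class II genes 1 was called (25%), H2-Eb1, which fell (log2 fold change -1.07 ± 0.18, adjusted p = 0.000891), and without T1 replicate 2 there were 2 such calls. The stromal list is described with the mesenchymal genes.

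**Figure D2:**
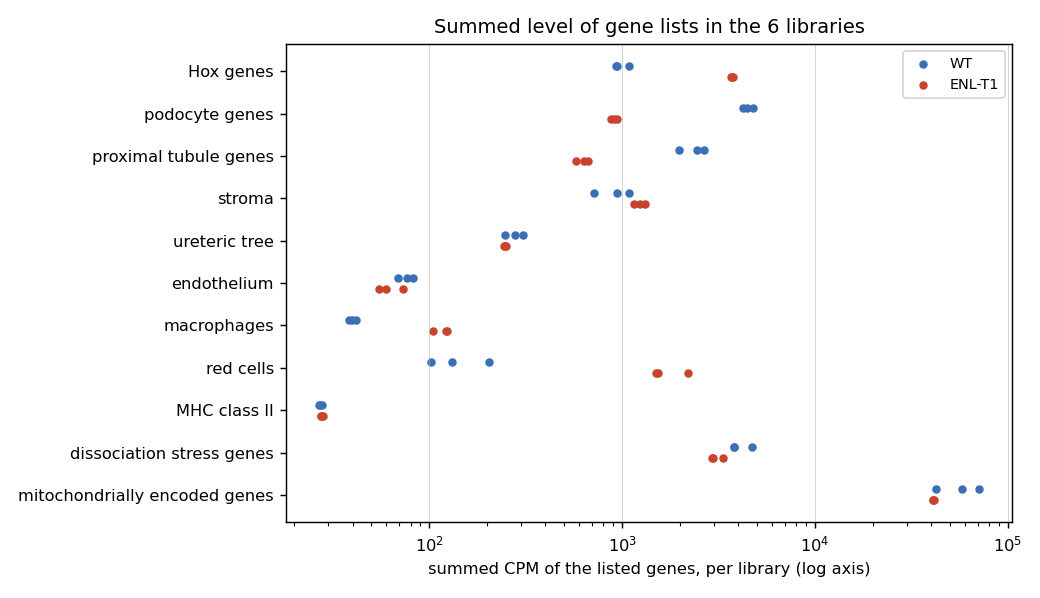
Summed CPM of 11 gene lists in each of the 3 WT and 3 ENL-T1 libraries, on a log axis, each point a library. The Hox, macrophage and red cell sums of ENL-T1 lie to the right of WT, the podocyte and proximal tubule sums lie to the left, and the endothelial sums overlap.

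Hox genes rose almost as a whole family. Of 39 Hox genes, 35 passed the filter on low counts, and 34 of these rose and none fell, beside 6.14% of all tested genes that rose. Their median log2 fold change was 1.74, beside 0.0153 over all tested genes. The summed level was 941, 927 and 1085 CPM in WT and 3721, 3743 and 3661 CPM in T1. Hoxb1 was the exception among the tested members, at 0.085, 0.353 and 0.544 CPM in WT and 0.826, 0.946 and 0.499 CPM in T1 (log2 fold change 1.22 ± 0.53, adjusted p = 0.135), and with no filter on low counts it passed (adjusted p = 0.0271). Hoxb13, Hoxc12, Hoxc13 and Hoxd4 had too few counts to be tested. For Hoxd4, 52.3% of its exonic bases overlap a different gene, and the part of this overlap in its low counts was not tested. In the Foxd1-lineage libraries described below Hoxd4 passed the filter and rose (log2 fold change 1.51, adjusted p = 0.00165).

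The rise covered all 4 clusters, with 11 of 11 tested Hoxa genes, 8 of 9 Hoxb, 7 of 7 Hoxc and 8 of 8 Hoxd genes called. Median log2 fold changes were 2.02 in Hoxa, 1.36 in Hoxb, 1.67 in Hoxc and 1.66 in Hoxd. By paralog group, the median was 1.60 over groups 1 to 4, 1.31 over groups 5 to 8 and 2.02 over groups 9 to 13, and these differences between sets of genes were not tested. The smallest called change was that of Hoxd8, at 25.9, 28.4 and 28.9 CPM in WT and 49.3, 52 and 47.8 CPM in T1 (log2 fold change 0.84 ± 0.077, adjusted p = 4.11e-06).

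Hoxa13, the last gene of its cluster and a gene of the hindgut, genital and limb regions, was nearly silent in WT at 0, 0.158 and 0.0952 CPM and stood at 7.41, 5.02 and 6.91 CPM in T1. Its log2 fold change was 6.23 ± 0.44 (adjusted p = 3.57e-07), the largest of the family. Hottip, a long noncoding RNA that starts next to Hoxa13, went from 0.0607, 0.0244 and 0.177 CPM to 2.76, 1.64 and 1.5 CPM (log2 fold change 4.51 ± 0.50, adjusted p = 2.28e-05), although 25.3% of its exonic bases lie in a different gene too. The genotypes did not overlap for either transcript. Hoxd12 followed, at 6.56, 4.11 and 6 CPM in WT and 65.7, 82.7 and 67.7 CPM in T1 (log2 fold change 3.70 ± 0.15, adjusted p = 3.14e-09). Its neighbour Hoxd13 changed far less, from 0.401, 1.08 and 1.32 to 1.63, 2.51 and 1.82 CPM (log2 fold change 1.09 ± 0.36, adjusted p = 0.0485). That call was lost without WT replicate 1 (adjusted p = 0.0776), WT replicate 2 (0.0844), T1 replicate 1 (0.0624), T1 replicate 2 (0.197) or T1 replicate 3 (0.0951) and in the fit of all 12 sorted Six2 libraries (0.0976).

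The kidney paralogs of group 11 rose in every cluster that has one. Hoxa11 was at 16.8, 17.4 and 20.4 CPM in WT and 163, 162 and 168 CPM in T1 (log2 fold change 3.17 ± 0.081, adjusted p = 5.84e-11). Since 35% of Hoxa11 exonic bases overlap a second gene, its counts may hold reads of both. Hoxc11 went from 13.8 ± 1.79 to 82.8 ± 1.56 CPM (mean ± SD, n = 3 libraries) and Hoxd11 from 50.1 ± 5.36 to 179.7 ± 16.6 CPM, with log2 fold changes of 2.58 ± 0.094 and 1.84 ± 0.089. The libraries of a genotype lay close together, and no WT library reached the T1 range for any of the 3 genes. Levels between genes can be compared only per length. Per kilobase of exon, Hoxb9 (232 CPM) and Hoxc10 (219 CPM) had the highest T1 levels of the named Hox genes, and these were also the highest in WT, at 48.9 and 49.8 CPM. Hoxa5 and Hoxa6, members of the middle of the cluster, rose more steeply than Hoxb9 in fold (log2 fold changes 2.88 ± 0.087 and 2.92 ± 0.092, against 2.24 ± 0.071).

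**Figure D3:**
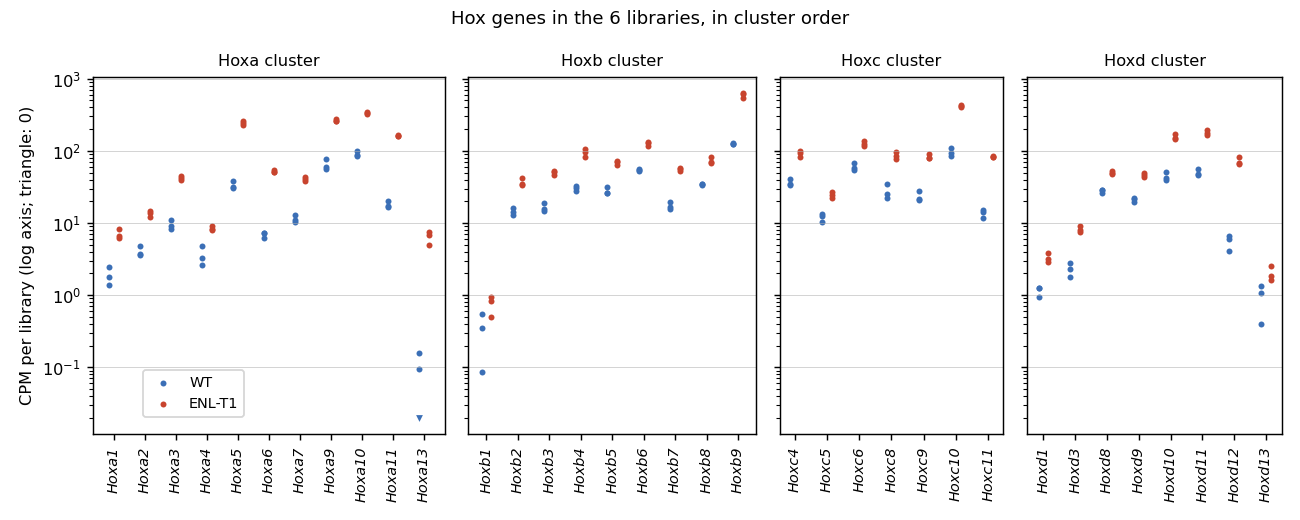
CPM of the 35 tested Hox genes in each of the 6 libraries, on a log axis, in cluster order, with WT in blue and ENL-T1 in red. The T1 points lie above the WT points for every gene but Hoxb1, and Hoxa13 shows the widest gap.

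The promoters of the 3 Hox genes with the largest called rise are shown because these genes rose together. Each is the 250 bases before the RefSeq start in build GRCm38.p6, 5′ to 3′ on the strand of the gene. Capitals mark matches, on either strand, to the TATA box letters TATAAA, the CCAAT box letters CCAAT or the GC box letters GGGCGG, and no matches overlapped. The positions are chr6:52260881-52261130 (minus strand), chr2:74674763-74675012 (plus strand) and chr6:52245811-52246060 (minus strand).
Hoxa13: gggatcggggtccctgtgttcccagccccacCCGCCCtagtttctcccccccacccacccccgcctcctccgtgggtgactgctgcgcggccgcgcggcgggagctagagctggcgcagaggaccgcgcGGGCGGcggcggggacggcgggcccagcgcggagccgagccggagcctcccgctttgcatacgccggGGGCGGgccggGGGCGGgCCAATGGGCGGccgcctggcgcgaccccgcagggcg
Hoxd12: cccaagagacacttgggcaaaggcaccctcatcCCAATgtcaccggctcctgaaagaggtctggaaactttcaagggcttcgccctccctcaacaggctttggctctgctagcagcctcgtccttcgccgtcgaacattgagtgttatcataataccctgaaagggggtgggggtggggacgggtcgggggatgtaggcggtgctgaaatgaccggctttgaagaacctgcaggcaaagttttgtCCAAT
Hoxa11: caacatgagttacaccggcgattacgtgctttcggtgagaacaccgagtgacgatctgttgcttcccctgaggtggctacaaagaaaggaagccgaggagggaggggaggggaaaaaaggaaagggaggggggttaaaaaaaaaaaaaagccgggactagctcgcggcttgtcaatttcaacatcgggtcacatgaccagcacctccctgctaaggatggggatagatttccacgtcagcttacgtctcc

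The Hoxa13 window held 5 GC box matches, 1 CCAAT match and 35 CpG dinucleotides, with 80% G and C. Hoxd12 held 2 CCAAT matches and 10 CpG, and Hoxa11 held none of the 3 motifs and 13 CpG. Over 32851 promoters of the table, 12.4% held TATAAA, 33.8% CCAAT and 32.7% GGGCGG, and the median was 6 CpG per window. A match is a description of the letters and says nothing of binding.

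Nephron progenitor genes fell in part. Of 19 tested, 9 fell (47.4%) and 2 rose (10.5%), beside 5.54% and 6.14% of all tested genes. The rises ran from 0 to 3 over the alternatives, with none left without WT replicate 2. The list had its median log2 fold change at -0.478, beside 0.0153 over all tested genes. Cited1, a co-regulator that marks the uncommitted cap mesenchyme, fell the most, from 29.4, 38.7 and 42.9 CPM in WT to 4.77, 6.05 and 7.01 CPM in T1 (log2 fold change -2.64 ± 0.16, adjusted p = 9.34e-08). Six2, the transcription factor that keeps progenitors in renewal, was at 204, 190.0 and 251 CPM in WT and 75.9, 92.7 and 94.9 CPM in T1 (log2 fold change -1.29 ± 0.11, adjusted p = 1.55e-06). The lowest WT library lay above the highest T1 library for both genes. Crym, Osr1, Spock2 and Fgf20 also fell, with log2 fold changes of -1.84, -1.76, -1.51 and -1.65, and so did the signal Bmp7 (-1.17), the integrin Itga8 (-0.97) and Eya1, a partner of the Six2 protein, (-0.73).

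Other progenitor genes were not called lower. Pax2, a transcription factor of the whole nephron lineage, rose from 162, 159 and 195 CPM to 277, 259 and 246 CPM (log2 fold change 0.60 ± 0.083, adjusted p = 0.000146), close to the fold threshold, and the fold dropped under it without WT replicate 1 (0.56), without WT replicate 2 (0.55) and without T1 replicate 1 (0.56). Sall1, a zinc finger factor of progenitors, was higher in every T1 library but below the fold threshold (log2 fold change 0.48 ± 0.067, adjusted p = 0.000185). Uncx did not pass the test, at 65.5 ± 4.69 CPM in WT and 73.7 ± 5.46 CPM in T1 (mean ± SD, n = 3; log2 fold change 0.17 ± 0.075, adjusted p = 0.143). Gdnf, the signal to the ureteric bud, was at 73.6, 67 and 79.6 CPM in WT and 46.6, 51.2 and 60.3 CPM in T1 (log2 fold change -0.48 ± 0.095, adjusted p = 0.00261), below the fold threshold, and without T1 replicate 3 it passed (-0.60).

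Genes of commitment and the renal vesicle moved mostly the other way, with 7 of 15 up (46.7%) and 1 down (6.67%), beside 6.14% and 5.54% of all tested genes. The median over the list was 0.481 on the log2 scale. Wnt4, the signal by which committed cells become epithelial, was at 227, 224 and 239 CPM in WT and 383, 430.3 and 403 CPM in T1 (log2 fold change 0.82 ± 0.065, adjusted p = 1.16e-06). Sfrp2, a secreted Wnt modulator, went from 98, 94.6 and 93.3 to 242, 236 and 244 CPM (log2 fold change 1.33 ± 0.059, adjusted p = 4.96e-09). The groups were well apart for both. The ligand Bmp2 (1.45 ± 0.097) and the BMP regulator Bmper (0.92 ± 0.099) rose too, as did cyclin D1, Ccnd1 (0.67 ± 0.074), and Tmem100 (0.70 ± 0.16), whose fold dropped under the threshold without WT replicate 1 (0.52).

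Jag1, the Notch ligand of the renal vesicle, rose by little more than the fold threshold (log2 fold change 0.63 ± 0.098, adjusted p = 0.000406), and fell short of it without WT replicate 3 (0.54) and without T1 replicate 1 (0.53). Lhx1, the LIM factor of the same structure, fell from 132, 113 and 116 to 98.2, 76.9 and 64.6 CPM (log2 fold change -0.59 ± 0.12, adjusted p = 0.0032). That fall was under the fold threshold without WT replicate 1 (-0.52), T1 replicate 2 (-0.56) or T1 replicate 3 (-0.47), and with scaling by library size only (-0.50). Pax8 and Lef1 were higher in every T1 library and did not pass the fold threshold, with log2 fold changes of 0.32 ± 0.071 and 0.48 ± 0.084.

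**Figure D4:**
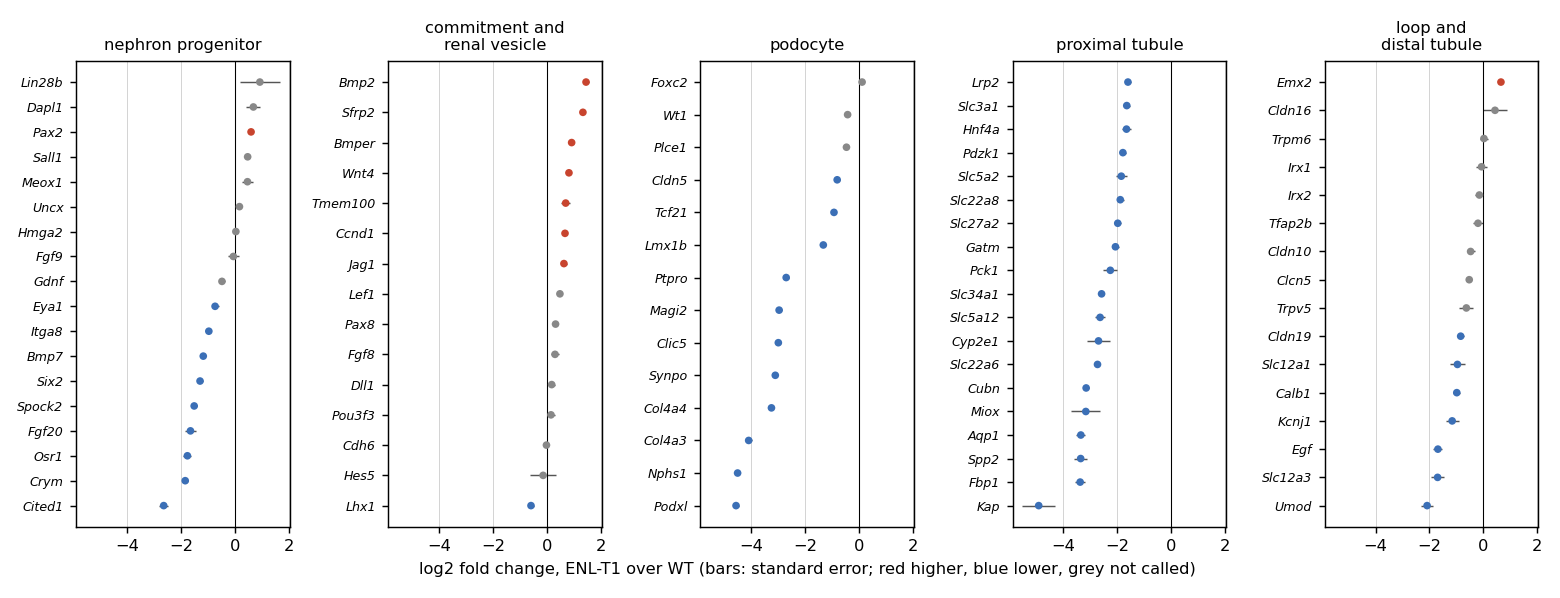
Log2 fold change of ENL-T1 over WT for tested members of 5 nephron gene lists, each point a gene with its standard error as a bar, red where called higher, blue where called lower and grey where not called. All 19 proximal tubule genes and 11 of 14 podocyte genes plotted lie in blue, and 7 of 15 commitment genes in red.

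Podocyte genes had the lowest median of the nephron lists. Of 16 tested, 13 fell and none rose, beside 5.54% of all tested genes that fell, and the median was -2.84 on the log2 scale. The summed level was 4415, 4765 and 4242 CPM in WT and 909, 872 and 939 CPM in T1. Nphs1, which encodes nephrin, the structural protein of the slit diaphragm, was at 195, 209 and 184 CPM in WT and 8.14, 8.27 and 9.42 CPM in T1 (log2 fold change -4.51 ± 0.085, adjusted p = 6.45e-12). Podxl, podocalyxin, went from 1724, 1953 and 1677 to 72.8, 63.9 and 88.9 CPM (log2 fold change -4.57 ± 0.12, adjusted p = 5.87e-11). The T1 libraries of both genes lay far below every WT library.

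The size of the fall differed between genes. Structural genes of the mature cell, such as Synpo, an actin-binding protein of foot processes (-3.11 ± 0.08), and the phosphatase Ptpro (-2.71 ± 0.12), had large changes. The transcription factors Lmx1b and Tcf21 had smaller ones, with log2 fold changes of -1.33 ± 0.089 and -0.93 ± 0.083. Wt1, which progenitors also express, was lower in every T1 library but under the fold threshold, at 546, 514 and 560.2 CPM in WT and 391, 403 and 412 CPM in T1 (log2 fold change -0.43 ± 0.061, adjusted p = 0.00022). Plce1, a phospholipase, stayed under the threshold likewise (-0.47 ± 0.065), and Foxc2, an early podocyte regulator, did not pass the test (0.11 ± 0.087, adjusted p = 0.446). The difference between structural genes and regulators was seen in these values and was not tested.

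Collagen IV genes split by chain. Podocytes make the chains Col4a3, Col4a4 and Col4a5 of the mature membrane, and all 3 genes fell. Col4a3 went from 159.9, 198 and 163 CPM to 10.3, 8.9 and 11.1 CPM (log2 fold change -4.10 ± 0.11, adjusted p = 5.87e-11) and Col4a4 from 169 ± 15.3 to 17.7 ± 2.75 CPM (mean ± SD, n = 3; -3.25 ± 0.11, adjusted p = 5.01e-10). Col4a5 fell less, from 235, 268 and 236 to 156, 155 and 173 CPM (-0.61 ± 0.073, adjusted p = 4.26e-05), and its fold was under the threshold without WT replicate 2 (-0.55), without T1 replicate 2 (-0.58) and with scaling by library size only (-0.52). Col4a1 and Col4a2, the chains of the embryonic membrane and of most other basement membranes, had log2 fold changes of -0.26 ± 0.06 and -0.11 ± 0.056, neither called.

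The promoter of Nphs1, one of the podocyte genes with the largest falls, is shown for contrast with the Hox genes that rose. Podxl has no entry in the table used here. The Nphs1 window lies at chr7:30459808-30460057 (GRCm38.p6, plus strand), the 250 bases before the RefSeq start, with none of the 3 motifs and 5 CpG. The GENCODE annotation used for names starts Nphs1 at 30458315, so this window lies inside the gene as annotated there.
Nphs1: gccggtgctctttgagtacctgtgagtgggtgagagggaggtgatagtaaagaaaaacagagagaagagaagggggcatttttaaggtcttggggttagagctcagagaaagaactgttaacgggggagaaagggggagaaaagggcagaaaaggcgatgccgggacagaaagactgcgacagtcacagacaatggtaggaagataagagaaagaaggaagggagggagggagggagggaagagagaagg

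Proximal tubule genes fell without exception. All 21 genes of the list passed the low-count filter, and 21 fell, beside 5.54% of all tested genes, their median being -2.26 on the log2 scale. The summed level was 2448, 2651 and 1975 CPM in WT and 666, 578 and 634 CPM in T1. The regulator Hnf4a, needed for proximal tubule formation, was at 108, 93.3 and 81 CPM in WT and 41.8, 23.4 and 23.9 CPM in T1 (log2 fold change -1.66 ± 0.19, adjusted p = 2.43e-05).

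Both endocytic receptors of the brush border fell. Cubn, cubilin, went from 162, 178 and 130.4 CPM to 15.6, 17.3 and 19.7 CPM (log2 fold change -3.16 ± 0.12, adjusted p = 8.96e-10), and Lrp2, megalin, from 1242, 1231 and 906 to 379, 358 and 372 CPM (-1.61 ± 0.10, adjusted p = 1.56e-07). Among transporters and channels, the phosphate carrier Slc34a1 (-2.59 ± 0.095), the organic anion carrier Slc22a6 (-2.74 ± 0.11) and the water channel Aqp1 (-3.36 ± 0.17) fell. Fbp1 (-3.38 ± 0.19), an enzyme of glucose synthesis, fell as well. Kap, a protein made under androgen in the tubule, varied among WT libraries, at 1.45, 8 and 5.67 CPM, and was at 0.293, 0.121 and 0.064 CPM in T1, below every WT library (log2 fold change -4.92 ± 0.61, adjusted p = 6.08e-05).

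Larger families that the tubule uses also held falls. Of 336 tested genes named as solute carriers, 74 fell (22%) and 22 rose (6.55%), beside 5.54% and 6.14% of all tested genes, and 240 were not called. Of 38 tested cytochrome P450 genes, 14 fell (36.8%) and 3 rose (7.89%), the falls numbering 9 in the fit of all 12 libraries. Among those that fell were Cyp27b1, which activates vitamin D, from 11.8, 21.5 and 17.9 to 1.96, 1.26 and 1.94 CPM (log2 fold change -3.31 ± 0.23, adjusted p = 2.73e-07), Cyp2j5 (-2.53 ± 0.19) and Cyp4a31 (-2.63 ± 0.19). Of 18 tested claudins, proteins of tight junctions, 7 fell (38.9%) and 2 rose (11.1%), with Cldn2, the cation pore of the proximal tubule, at 50.2 ± 8.58 CPM in WT and 12 ± 2.1 CPM in T1 (mean ± SD, n = 3; log2 fold change -2.07 ± 0.14, adjusted p = 2.45e-07).

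Loop and distal tubule genes fell in part. Of 16 tested, 7 fell (43.8%) and 1 rose (6.25%), beside 5.54% and 6.14% of all tested genes, and the falls ran from 5 to 9 over the alternatives. Umod, uromodulin of the thick ascending limb, fell from 9.31, 19.2 and 14.2 to 3.86, 3.14 and 3.02 CPM (log2 fold change -2.09 ± 0.22, adjusted p = 1.43e-05), and Slc12a3, the thiazide-sensitive cotransporter of the distal tubule, from 11.6, 8.8 and 13.2 to 2.19, 4.7 and 3.47 CPM (-1.70 ± 0.23, adjusted p = 0.000141). Slc12a1, the cotransporter of the loop, had overlapping groups, at 59.3, 134 and 127 CPM in WT and 82.2, 38.2 and 43.8 CPM in T1 (-0.96 ± 0.29, adjusted p = 0.033). Its call was lost without WT replicate 2 (adjusted p = 0.151), WT replicate 3 (0.119), T1 replicate 2 (0.147) or T1 replicate 3 (0.139), with the replicate number as a block (adjusted p = 0.062) and in DESeq2 (adjusted p = 0.156). Emx2, the exception, is an early homeobox factor of the lineage and rose (0.65 ± 0.087, adjusted p = 0.00011). Its fold was under the threshold without T1 replicate 1 (0.56). Calb1 fell (-0.99 ± 0.14, adjusted p = 0.000159), with an adjusted p of 0.349 in the fit of all 12 libraries, and Irx2 did not pass the test (-0.15 ± 0.15, adjusted p = 0.563).

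Signalling genes moved gene by gene, with more rises than falls in the Wnt and BMP lists. Of 49 tested Wnt pathway genes 14 rose (28.6%) and 3 fell (6.12%), beside 6.14% and 5.54% of all tested genes, so the share of falls was near that of all genes. There was 1 fall in the fit of all 12 libraries. Among ligands, Wnt5a and Wnt11, of the noncanonical branch, went from 14.3, 15.1 and 11.4 to 30.5, 31 and 29.5 CPM (log2 fold change 1.15 ± 0.11, adjusted p = 4.17e-06) and from 10.2, 8.11 and 7.37 to 18.2, 18.6 and 16.7 CPM (1.06 ± 0.13, adjusted p = 4.26e-05). The receptor Fzd10 (1.06 ± 0.10) and the secreted antagonist Dkk2 (1.5 ± 0.14) rose. Ctnnb1, Axin2 and Lef1, 3 further members of the list, were not called. Lef1, which the paper names as a Wnt target, was higher in every T1 library but under the fold threshold (0.48 ± 0.084, adjusted p = 0.00101). Ctnnb1, β-catenin, was lower in every T1 library but under the fold threshold (log2 fold change -0.26 ± 0.057, adjusted p = 0.00526). Axin2, the feedback target of canonical signalling, did not pass the test (0.23 ± 0.095, adjusted p = 0.115). The falls included Wnt9b, the ureteric ligand that acts on progenitors, at 0.134, 0.317 and 0.299 CPM in WT and 0.0418, 0 and 0 CPM in T1, near the limit of detection (adjusted p = 0.0104). That call was lost without WT replicate 2 (adjusted p = 0.0528), T1 replicate 2 (0.0554) or T1 replicate 3 (0.0524) and in the fit of all 12 libraries (0.0869). Wnt7b, another ureteric ligand, fell too (-0.86 ± 0.16, adjusted p = 0.0018), and its adjusted p in the fit of all 12 libraries was 0.154.

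In the BMP list, 7 of 25 rose (28%) and 1 fell (4%), beside 6.14% and 5.54% of all tested genes. The fall was of Bmp7, from 175, 170.1 and 176 to 82, 72.3 and 77.1 CPM (log2 fold change -1.17 ± 0.065, adjusted p = 4.06e-08). Rises covered both ligands and antagonists, such as Nog, from 6.12, 7.72 and 7.55 to 17.6, 16.2 and 18.8 CPM (1.30 ± 0.12, adjusted p = 3.68e-06), and Grem1 (0.71 ± 0.12). Of 14 Hedgehog genes 3 rose (21.4%), among them the targets Gli1 (0.89 ± 0.20) and Hhip (1.27 ± 0.13), and 1 fell (7.14%), the ligand Ihh (-2.67 ± 0.39). The receptor and target Ptch1 was higher in every T1 library but under the fold threshold (0.30 ± 0.065, adjusted p = 0.0056).

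Retinoic acid genes split evenly, with 3 of 18 up and 3 down (16.7% each, beside 6.14% and 5.54% of all tested genes). Aldh1a2, an enzyme that makes retinoic acid, fell from 659, 636 and 712 to 328, 353 and 363 CPM (log2 fold change -0.94 ± 0.068, adjusted p = 4.15e-07), Aldh1a1 fell from a lower level (-3.03 ± 0.24), and Dhrs3, which reduces retinaldehyde, fell (-0.65 ± 0.10), though its fold was under the threshold without WT replicate 1 (-0.56) and with scaling by library size only (-0.55). The receptor Rarg rose (0.91 ± 0.11). Of 33 FGF genes 2 rose (6.06%) and 3 fell (9.09%), beside 6.14% and 5.54% of all tested genes, and the rises ran from 1 to 4 over the alternatives. The falls were Fgf1 (-1.90 ± 0.099), Fgf10 (-0.96 ± 0.10) and the progenitor ligand Fgf20. Of 21 Notch genes 2 rose (9.52%, beside 6.14% of all tested genes), Jag1 and the target Hey2 (0.94 ± 0.14). The Notch rises numbered 1 without WT replicate 3 or T1 replicate 1. Hes1 was not called (-0.26 ± 0.099, adjusted p = 0.0923).

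Part of the mesenchymal genes and most stromal markers rose, although the sorted cells belong to the nephron lineage. Of 14 mesenchymal transcription factors, 5 rose (35.7%, beside 6.14% of all tested genes) and none fell: Gata2 (1.10 ± 0.11), Snai2 (0.76 ± 0.14), Prrx1 (1.27 ± 0.16), Meis1 (1.26 ± 0.11) and Tshz3, from 4.14, 4.67 and 3.96 to 11.2, 11.9 and 11.5 CPM (1.44 ± 0.12, adjusted p = 1.52e-06). Of 13 stromal markers, 9 rose (69.2%) and 1 fell (7.69%, beside 5.54% of all tested genes), with 2 falls without WT replicate 1 or T1 replicate 2 and 3 without WT replicate 3. Their summed level was 936, 1091 and 718 CPM in WT and 1148, 1319 and 1235 CPM in T1. Col1a1, the main fibrillar collagen, went from 150.2, 179.8 and 91.4 to 329, 414 and 378 CPM (1.41 ± 0.18, adjusted p = 7.94e-05), and Pdgfra, a receptor of stromal cells, from 24.6, 21.6 and 9.19 to 49.6, 50.5 and 45.9 CPM (1.40 ± 0.25, adjusted p = 0.00113). WT replicate 3 was the lowest library for both. Dcn, the matrix proteoglycan decorin, rose (1.54 ± 0.16). Foxd1, the transcription factor that defines kidney stroma, moved the other way, from 38.2, 38.1 and 31.5 CPM in WT to 8.92, 9.46 and 10 CPM in T1 (-1.93 ± 0.10, adjusted p = 2.87e-08), and Col1a2 was lower in every T1 library, under the fold threshold (-0.57 ± 0.09), and passed it without WT replicate 1 (-0.61), WT replicate 3 (-0.65) or T1 replicate 2 (-0.61). No stromal marker was at 0 in a group, and the part of stromal cells in these values was not tested.

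Of 41 tested collagen genes 22 rose (53.7%) and 4 fell (9.76%), beside 6.14% and 5.54% of all tested genes. Those that rose included Col6a3 (1.73 ± 0.24), of the microfibrils around cells, Col15a1 (1.65 ± 0.16), next to basement membranes, and Col3a1 (0.94 ± 0.21), whose adjusted p was 0.0513 in the fit of all 12 libraries. Fn1, fibronectin, was at 462, 464 and 414 CPM in WT and 859.6, 937 and 903 CPM in T1 (1.01 ± 0.068, adjusted p = 2.22e-07), and Ltbp1, which stores TGF-β in the matrix, at 600.4, 606 and 618 and 966, 1026 and 1046 CPM (0.74 ± 0.06, adjusted p = 1.31e-06). Ccnd2, cyclin D2, was also among the genes with the largest rise in CPM (1.53 ± 0.068, adjusted p = 5.14e-09).

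Several genes with the largest folds encode products of other tissues. Cnmd, the cartilage glycoprotein chondromodulin, was at 0.559, 0.707 and 0.585 CPM in WT and 49.6, 44.7 and 47.4 CPM in T1 (log2 fold change 6.25 ± 0.12, adjusted p = 6.45e-12). Gfra2, the neurturin co-receptor, went from 1.76, 2.31 and 2.38 to 35.7, 44.9 and 46.8 CPM (4.30 ± 0.15, adjusted p = 4.91e-10). Both genes were low in every WT library and clearly present in every T1 library. Dner (4.37 ± 0.15), a neuronal Notch ligand, Lypd1 (4.41 ± 0.28) and Syndig1l (6.79 ± 0.41) followed the same pattern at lower levels. So did Ms4a14, 9530018H14Rik and Gm26911, at 1.38 ± 0.567, 4.97 ± 0.836 and 1.39 ± 0.0924 CPM in T1 (mean ± SD, n = 3) against 0.0506 ± 0.0488, 0.103 ± 0.0897 and 0.0578 ± 0.036 CPM in WT. Neither 9530018H14Rik nor Gm26911 is annotated as protein coding, and 9530018H14Rik lies next to Hoxa13 on the same strand. Lhcgr, the receptor for luteinizing hormone, was at 0.0121, 0.0122 and 0 CPM in WT, where it had too few counts for a fold, and 1.11, 2.02 and 1.47 CPM in T1.

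Of 11 tested neuropeptide genes 3 rose (27.3%, beside 6.14% of all tested genes). Sst, somatostatin, was at 0.364, 0.341 and 0.49 CPM in WT and 4.94, 4.28 and 4.67 CPM in T1 (3.54 ± 0.22, adjusted p = 9.59e-08), Nts, neurotensin, at 1.45, 1.01 and 0.449 and 9.27, 11.2 and 10.9 CPM (3.42 ± 0.28), and Penk, proenkephalin, at 19.1, 22.5 and 9.41 and 45.4, 54.8 and 49.2 CPM (1.55 ± 0.22). Npy did not pass the fold threshold (0.44 ± 0.12, adjusted p = 0.017).

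The genes with the largest falls by fold had products of several kinds. Serpina6, the corticosteroid-binding globulin, went from 10.5, 23.9 and 17.9 CPM in WT to 0.125, 0.0606 and 0.243 CPM in T1 (-6.94 ± 0.38, adjusted p = 4.06e-08), and R3hdml from 43.1, 56.6 and 44.3 to 1.32, 0.873 and 1.14 CPM (-5.43 ± 0.16, adjusted p = 1.94e-10). Ntng2, netrin-G2, went from 32.2, 41.6 and 39.1 to 2.27, 1.49 and 2.16 CPM (-4.25 ± 0.16, adjusted p = 9.9e-10). The T1 libraries lay far below the WT libraries for all 3. Slc7a12 (-4.93 ± 0.44), an amino acid carrier, Matn1 (-4.61 ± 0.70), a cartilage matrix protein, Acox2 (-4.38 ± 0.75), a peroxisomal oxidase, and the processed pseudogene Gm8828 (-4.63 ± 0.41) fell from low levels. Gm853 was at 0.96, 1.39 and 1.58 CPM in WT and 0, 0.0121 and 0.0256 CPM in T1, too few counts in T1 for a fold.

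Several lists held no call of edgeR's quasi-likelihood test, nor of DESeq2 or any other alternative with a fold threshold. For comparison, 6940 of all 22685 tested genes had an unadjusted p under 0.05 in the quasi-likelihood test. Log2 fold changes were above 0 for 11813 and below 0 for 10872 of them. Of 16 genes for ENL partners none was called and 3 had an unadjusted p under 0.05, including Aff4, the scaffold of the super elongation complex, which was lower in every T1 library (514, 556 and 508 against 423, 389 and 430.3 CPM, -0.34 ± 0.066, adjusted p = 0.00205) but under the fold threshold. None of 16 proliferation genes was called either, 8 had an unadjusted p under 0.05, 15 had a log2 fold change above 0, and 8 had every T1 library above every WT library. Mki67 was at 452, 404 and 448 CPM in WT and 467, 526 and 475 CPM in T1 (0.17 ± 0.071, adjusted p = 0.112), Top2a had 0.23 ± 0.068 and Cdk1 0.30 ± 0.088. Of 12 p53 targets 2 fell (16.7%, beside 5.54% of all tested genes), among them Eda2r (-0.95 ± 0.15). These falls ran from 1 to 3 over the alternatives. Cdkn1a, the cell cycle inhibitor p21, was under the fold threshold (-0.42 ± 0.077). No subunit of oxidative phosphorylation encoded in the nucleus was called (0 of 76, median log2 fold change -0.0893), while 65 had a log2 fold change below 0 and 16 an unadjusted p under 0.05.

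Transcripts of the mitochondrial genome and stress genes varied between libraries. Summed mitochondrial mRNAs were at 42440.0, 57520.0 and 70580.0 CPM in WT and 41580.0, 40720.0 and 40910.0 CPM in T1, so WT replicate 1 lay near the T1 libraries. mt-Atp6 (-0.64 ± 0.17), mt-Nd4 (-0.59 ± 0.17) and mt-Atp8 (-0.86 ± 0.23) were called lower, and DESeq2 called none of the 3, while 9 genes of the list were called lower without WT replicate 1. Each call was also lost without WT replicate 2, WT replicate 3, T1 replicate 2 or T1 replicate 3, and the fit lacking WT replicate 3 gave log2 values of -0.41, -0.33 and -0.53. Adjusted p-values over those 4 fits ran from 0.0687 to 0.0857 for mt-Atp6, from 0.0637 to 0.0841 for mt-Nd4 and from 0.0635 to 0.0941 for mt-Atp8, and mt-Nd4 also missed without T1 replicate 1 (0.0634). The ribosomal transcript mt-Rnr1 fell (-0.74 ± 0.10, adjusted p = 0.000196), and CT010467.1, with 73.9% of its exonic bases in a different gene, went from 2028, 1201 and 788 to 514, 765 and 577 CPM. Of 12 genes that respond to tissue dissociation, 4 fell (33.3%, beside 5.54% of all tested genes) and none rose, with Egr1, an immediate early factor, at 1399, 999 and 1194 CPM in WT and 765, 629.9 and 631 CPM in T1 (-0.83 ± 0.11) and the heat shock genes Hspa1a (-1.52 ± 0.12) and Hspa1b (-1.40 ± 0.11), which are near-identical. The part of dissociation in the other results was not tested. Of 10 tubular injury genes 2 rose (20%) and 1 fell (10%), beside 6.14% and 5.54% of all tested genes. The rises were Clu (0.61 ± 0.08) and the chemokine Ccl2 (2.1 ± 0.18), and the fall was Spp1, osteopontin (-1.99 ± 0.23). The fold of Clu was under the threshold without WT replicate 3 (0.57) and without T1 replicate 1 (0.53), and Ccl2 had an adjusted p of 0.0736 in the fit of all 12 libraries. Of 10 interferon response genes 1 was called, Ifit3, which fell (-1.77 ± 0.19), or 10% beside 5.54% of all tested genes that fell.

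The effect of T1 at E18.5 was set against that in the same sorted lineage at E14.5, where 3 T1 and 3 WT libraries of the same genotypes were made and kidneys were dissociated with another enzyme, so stage and dissociation cannot be told apart. At E14.5, 921 genes rose (4.11%) and 511 fell (2.28%) of 22387 tested. Of the E18.5 rises, 445 were called in the same direction at E14.5 (32.0% of the E18.5 and 48.3% of the E14.5 rises), and of the falls 203 (16.2% and 39.7%), while 12 of the rises and 41 of the falls were called in the opposite direction. However, 89 of the E18.5 rises and 187 of the falls were not tested at E14.5. Among those tested, the shares were 34.2% of the rises and 19% of the falls. The 2 comparisons share no library. The test of the difference, a stage by genotype term over the 12 libraries, called 8.16% of 25222 genes, 995 more positive at E18.5 (3.94%) and 1064 more negative (4.22%), at an adjusted p under 0.05. The split of directions was not stable. It was 764 and 1184 under RLE size factors, 1268 and 882 with library size only and 878 and 1477 with no filter on low counts, and when an E18.5 library was left out it ran from 453 to 769 and from 866 to 1329.

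Hox genes rose at both stages, and many by more at E18.5. At E14.5, 24 of 35 rose, their median being 0.876 on the log2 scale, and 22 of 36 had a more positive effect at E18.5 while none had a more negative one. That count ran from 22 to 23 over the alternatives of the stage test. Hoxa11 had a log2 fold change of 0.61 at E14.5 and a difference between stages of 2.57 ± 0.10 (adjusted p = 4.78e-09). All E14.5 levels given were scaled over the 12 sorted Six2 libraries, and E18.5 levels over the 6 libraries of that stage unless said otherwise. WT levels of Hoxa11 were 79.4 CPM at E14.5 and 18.2 ± 1.93 CPM at E18.5, so the WT level was the lower one at E18.5. T1 levels were 120.1 and 164 ± 3.03 CPM, the latter being 171 CPM on the scale of the 12 libraries. Hoxa10 and Hoxb9 had stage differences of 1.45 ± 0.096 and 1.10 ± 0.095 (adjusted p = 7.78e-07 and 1.08e-05). Hoxa13 had nearly the same fitted fold at both stages, 6.25 ± 0.69 at E14.5 and 6.23 ± 0.44 at E18.5, each with a wide SE. The fitted difference of 0.03 did not pass the test (adjusted p = 0.985). The E14.5 means of Hoxa13 were 0.0103 CPM in WT and 0.825 CPM in T1, so the E14.5 fold rests on very few WT counts. The T1 mean at E18.5 was 6.45 CPM, or 6.7 CPM on the scale of the 12 libraries, so its levels differed between stages.

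Progenitor genes fell at both stages, with 10 of 19 down and none up at E14.5. Cited1 fell by more at E18.5, with a difference of -1.51 ± 0.20 (adjusted p = 0.000329), and Crym likewise (-0.66 ± 0.12, adjusted p = 0.00327), while for Six2 the difference did not pass the test (-0.45 ± 0.18, adjusted p = 0.154). Sall1 went from a log2 fold change of -0.27 at E14.5 to 0.48 at E18.5 (0.75 ± 0.095, adjusted p = 0.000256). Of 15 commitment genes 7 had a more positive effect at E18.5 and none a more negative one, counts that ran from 3 to 8 and from 0 to 1 over the alternatives. The first was 3 without WT replicate 2 and 4 without T1 replicate 2 or T1 replicate 3. Sfrp2, at -0.011 at E14.5, had a difference of 1.36 ± 0.12 (adjusted p = 9.59e-06), Bmp2 1.00 ± 0.16 (adjusted p = 0.00172), Jag1 1.06 ± 0.15 (adjusted p = 0.000773) and Wnt4 0.57 ± 0.13 (adjusted p = 0.0182).

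Many genes of mature nephron segments were little expressed at E14.5 in either genotype. Of 16 podocyte genes, 10 had a more negative effect at E18.5 and none a more positive one. Nphs1 was at 0.708 CPM in WT and 0.77 CPM in T1 at E14.5, and its stage difference was -4.64 ± 0.16 (adjusted p = 1.48e-09). For Podxl, at 10.5 and 2.67 CPM at E14.5, the difference was -2.61 ± 0.23 (adjusted p = 1.53e-05). Of 21 proximal tubule genes 9 had a more negative effect at E18.5 (8 to 14 over the alternatives, highest with no filter on low counts) and none a more positive one, among them Lrp2 (-1.54 ± 0.34, adjusted p = 0.0128), while the difference for Hnf4a did not pass the test (0.066 ± 0.60, adjusted p = 0.978). Of 12 macrophage markers 3 had a more positive effect at E18.5 and none a more negative one, and the count ran from 2 to 8 over the alternatives, being 8 with no filter on low counts and 5 with the replicate block within stage. Some genes that rose had the larger effect at E14.5. Sst was at 0.0823 CPM in WT and 22.4 CPM in T1 at E14.5, with a difference of -4.52 ± 0.27 (adjusted p = 4.4e-07), and Wnt5a had a difference of -1.24 ± 0.23 (adjusted p = 0.00417).

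**Figure D5:**
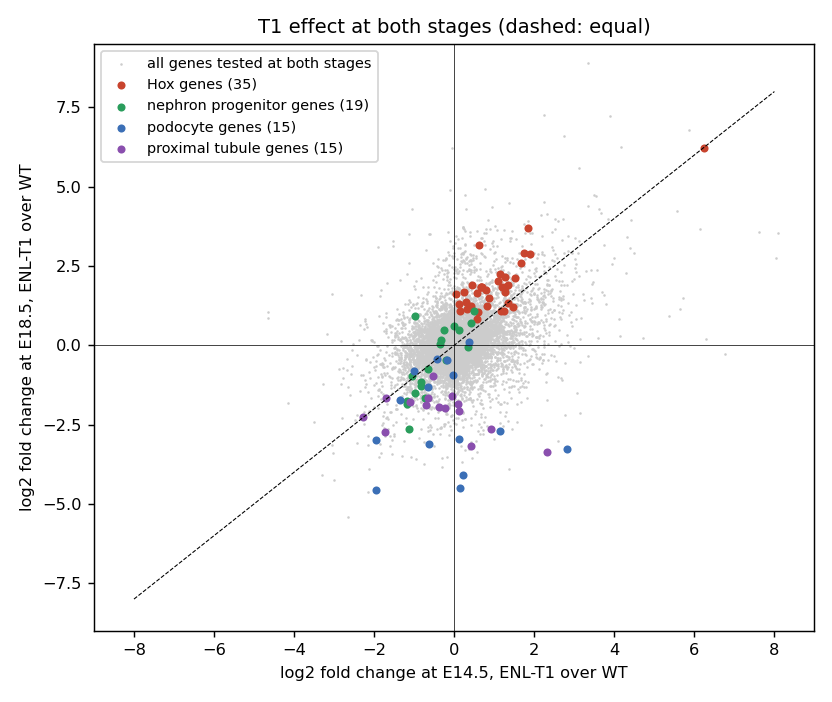
Log2 fold change of ENL-T1 over WT at E18.5 against that at E14.5 in sorted Six2-lineage cells, each point a gene tested at both stages, with 4 lists coloured and the line of equal effect dashed. Most Hox genes lie above the dashed line on the positive side, and most podocyte and proximal tubule genes lie below it.

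The 4 T1 and 4 WT libraries of Foxd1-lineage cells, the stromal lineage sorted at the same age, were used to test which effects differed between lineages. Both genotypes of these libraries carried Foxd1GC, a knock-in that makes a GFP-Cre fusion protein and abolishes Foxd1 function on that allele, in place of the Six2-TGC transgene. The Foxd1 libraries were also sequenced with another read length, so lineage, Cre driver and sequencing cannot be told apart. In them 462 genes rose (3.63%) and 277 fell (2.18%) of 12717 tested. However, 676 of the 1392 Six2 rises and 562 of the 1256 falls were not tested there. Of the 716 Six2 rises tested in the Foxd1 libraries, 157 (21.9%, and 34% of the Foxd1 rises) were called in the same direction and 56 in the opposite one. Of the 694 falls tested, 56 (8.07%, and 20.2% of the Foxd1 falls) were called in the same direction and 41 in the opposite one. The lineage by genotype term called 15.9% of genes, 1135 more positive in Six2 cells (7.63%) and 1226 more negative (8.25%) of 14869 tested, a split that became 1555 and 935 with library size only. Of 34 Hox genes, 17 rose more in Six2 cells and 1 less, and these counts ran from 16 to 20 and from 1 to 2 over the alternatives, the latter being 2 without WT replicate 1.

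Hoxb9 and Hoxd10 were not called in Foxd1 cells, where their log2 fold changes were 0.23 and -0.27 (adjusted p = 0.47 and 0.037), with differences of 2.03 ± 0.18 and 2.13 ± 0.13 (adjusted p = 6.29e-08 and 3.28e-10). Hoxd12 was the gene with the opposite difference, at 6.20 in Foxd1 cells (-2.52 ± 0.35, adjusted p = 2.21e-05). Hoxa5 rose in both lineages, with log2 fold changes of 2.88 and 3.09, and the difference of -0.20 ± 0.18 did not pass the test (adjusted p = 0.523). Nphs1 and Podxl had log2 fold changes of -0.27 and -0.11 in the Foxd1 libraries and differences of -4.22 ± 0.17 and -4.44 ± 0.21 (adjusted p = 1.28e-12 and 8.37e-12). The paper lists podocytes among the descendants of Six2 cells and not of Foxd1 cells, so these differences do not compare the same cells. The source of podocyte transcripts in the Foxd1 libraries was not tested. Of 12 macrophage markers 9 rose more in the Six2 libraries, and 8 of the 12 also rose in the Foxd1 libraries.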

How the data were processed

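The deposited values are counts per gene. Per the paper's methods, the authors made SMART-Seq v4 libraries, sequenced both ends, aligned reads to mm10 with HISAT2 and counted them with HTSeq without strand and with no minimum quality. These deposited counts are whole numbers without normalization. The annotation release is not given in the sources used here. Names and places came from GENCODE vM21 (GRCm38), and 29 of 54752 identifiers stayed unnamed. Counts without strand cannot separate overlapping genes, so shared exon length is given where it is large; it was 10.8% to 23.4% for Ccnd1, mt-Atp8, Umod, Hspa1a, Spp1, Meis1, Lypd1, Sfrp2, Csf1r, Ctnnb1, Penk, Ntng2, Lef1, Fgf20, Nphs1, Slc34a1 and Hoxd11.

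Counts were fitted in R 4.3.3 with edgeR 4.0.16 (filterByExpr, minimum count 10 and total 15, TMM, quasi-likelihood test, Benjamini-Hochberg). The study used edgeR's exact test, which is among the alternatives, with DESeq2 1.42.0, other scalings and filters, a replicate block, the fit of all 12 sorted Six2 libraries, other fold thresholds and each library left out. CPM, folds and levels per kilobase were computed here. A floor of 3 counts, which covers counting error only, was 0.0314 to 0.0408 CPM per library.

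The members, lists and named genes were chosen with earlier results of these data known. Besides list genes, the text names the 12 largest folds per direction (at least 1 CPM, groups apart), the 8 largest CPM differences and the 5 largest stage differences of protein-coding genes with at least 5 CPM. A few genes that these rules or the lists select are not reported here by name and are left out of the plot of nephron lists, while counts, medians and sums cover the whole lists. Replicate numbers did not pair the libraries: correlations of same-numbered deviations ran from -0.0631 to -0.0129. Replicates correlated at 0.984 to 0.987 and differed beyond sampling noise (chi-square per degree of freedom 12.1 to 63.7). Promoters came from RefSeq (GRCm38.p6), with entries for 4 of 6 genes. Figures were drawn with matplotlib 3.10.9.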

Additional observations from a re-analysis of the deposited data

Results flagged for a closer look

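The effect of T1 differed between stages for 2059 of 25222 genes and between lineages for 2361 of 14869 genes, each by a test of the difference itself. For the stage test over 12 sorted Six2 libraries, log2 differences (E18.5 minus E14.5) among the Hox genes were 2.57 ± 0.10 for Hoxa11, 1.45 ± 0.096 for Hoxa10 and 1.10 ± 0.095 for Hoxb9, all more positive at E18.5. Cnmd, the cartilage gene, also had a larger rise at E18.5 (2.09 ± 0.30, adjusted p = 0.000701).

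Among nephron genes, the stage differences were -1.51 ± 0.20 for Cited1, -0.66 ± 0.12 for Crym, 0.75 ± 0.095 for Sall1, 1.36 ± 0.12 for Sfrp2, 1.00 ± 0.16 for Bmp2, 1.06 ± 0.15 for Jag1 and 0.57 ± 0.13 for Wnt4. The mature segment genes Nphs1 (-4.64 ± 0.16), Podxl (-2.61 ± 0.23) and Lrp2 (-1.54 ± 0.34) were more negative at E18.5. Sst (-4.52 ± 0.27), Wnt5a (-1.24 ± 0.23) and Hspa1a (-2.37 ± 0.22) were also more negative at E18.5, and at E14.5 their log2 fold changes were 8.08, 2.40 and 0.86.

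The 5 protein-coding genes with the most negative stage difference were Mrgprf (-7.69 ± 0.80), an orphan receptor, Gsta2 (-7.34 ± 1.33), a glutathione transferase, Fbp1 (-7.19 ± 1.43), Col4a4 (-6.07 ± 0.24) and Aqp1 (-5.68 ± 0.57). At E14.5 the WT and T1 means were 0.0026 and 0.0491 CPM for Mrgprf, 0 and 0.0286 CPM for Gsta2 and 0.0051 and 0.0917 CPM for Fbp1, so their differences rest on very few counts at that stage. Col4a4 was at 0.121 and 0.85 CPM at E14.5, and Aqp1 at 0.17 and 0.835 CPM, against 51.3 ± 11.1 and 5.01 ± 0.894 CPM at E18.5.

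The 5 most positive were Eppk1 (5.61 ± 1.51), epiplakin, the immune genes Lilr4b (4.64 ± 0.66) and Il1b (4.64 ± 0.77), Myrip (4.02 ± 0.52) and Itga4 (3.93 ± 0.42), an integrin of leukocytes and other cells. Eppk1 was not itself called at E18.5 (0.32 ± 0.17, adjusted p = 0.252) and was at 0.0448 and 0 CPM at E14.5, where the T1 libraries held no count, so the size of its difference depends on the fit and is not a measured fold. Il1b was at 2.98, 1.72 and 1.84 CPM in WT and 14.9, 25.5 and 16.6 CPM in T1 at E18.5, and Lilr4b at 1.45, 0.743 and 0.884 and 10.9, 15.6 and 8.48 CPM, in the same libraries where macrophage markers were higher, and the part of macrophages in these values was not tested. Itga4 fell at E14.5 (-2.34, adjusted p = 0.00343) and rose at E18.5 (1.58 ± 0.16, adjusted p = 1.26e-05).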

How the results depend on the processing

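The counts of 1392 rises and 1256 falls became 2173 and 2430 with no fold threshold and 925 and 757 at a fold change over 2. Under every other alternative they were within 1.5 times: 1572 and 1368 with the exact test, 1439 and 1323 with DESeq2, 1306 and 1184 with the replicate number as a block, which did not pair the samples, 1190 to 1486 and 1069 to 1270 when a library was left out, and 1693 and 1055 with scaling by library size only. That scaling moved the median log2 fold change of all genes from 0.0153 to 0.11 and the share of calls that rose from 52.6% to 61.6%. Chosen after seeing the data were Xist state as a term (1384 and 1230) and leaving out mitochondrial transcripts (1376 and 1270).

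The 2059 stage differences became 1480 with the replicate block within stage and 1327 to 2098 when an E18.5 library was left out, lowest without WT replicate 2. The share that was more positive at E18.5 was 48.3%, against 39.2% with RLE factors, 59.0% with library size only, 37.3% with no filter and 31.4% to 37.0% when a library was left out. The 2361 lineage differences ran from 1987 to 2490, with 48.1% more positive in Six2 cells against 62.4% with library size only.

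Hox genes called up ran from 33 to 36, podocyte genes called down stayed at 13, proximal tubule genes called down ran from 20 to 21 and progenitor genes called down from 9 to 10. Less stable were progenitor genes called up, from 0 to 3, loop and distal tubule genes called down, from 5 to 9, and Wnt genes called down, from 1 to 4. Calls of FGF genes that rose ran from 1 to 4, of ureteric markers that fell from 1 to 4, of endothelial markers that fell from 0 to 3, and of mitochondrial transcripts that fell from 0 to 9. The log2 fold change of Mllt1 had no stable direction, from -0.046 to 0.023 when a library was left out. It was 0.076 with library size only, 0.023 without WT replicate 3 and 0.016 without T1 replicate 1. Calls of named genes that ended when a library was left out are given beside them, and 7 changes of setting or library brought 5 genes past the threshold. The replicate block ended the calls of Slc12a1 and mt-Nd4 and no other call of a named gene. Genes near the floor of 3 counts have the least precise folds.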
